A study of Mus musculus with 3 samples.

Results

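The Kcnma1 locus was described from the H3K4me1 enriched regions of 1 ChIP-seq library of cytokine treated mouse islets. A region was a member when it overlapped Kcnma1 or lay within 100 kb of it, in the GENCODE M1 annotation of the mouse genome build mm9. This gave 49 of the 65709 regions in the list, of which 31 overlapped the gene, 17 lay upstream and 1 downstream. The gene was chosen by its number of overlapping regions in this list, so that number and the share of the gene covered are given as descriptions, with no test.

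The study compared isolated islets cultured for 4 days with and without proinflammatory cytokines, to find which regulatory loci respond to these signals. The islets of this library were kept in RPMI with IFNγ at 1.6 ng/ml, IL-1β at 0.25 ng/ml and TNFα at 0.16 ng/ml. The mice were 8 to 12 weeks old per the labels, which name the strain CD1, whereas the study's methods name ICR and give a narrower age range, and the DNA of several separate immunoprecipitations from pooled mice was joined into 1 library. The series holds no H3K4me1 library of untreated islets, and its RNA libraries were not analysed here. No value below is therefore a difference between treated and untreated islets.

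Kcnma1 encodes the pore-forming α subunit of the BK channel, a large-conductance potassium channel opened by depolarisation and by intracellular calcium. It is known from smooth muscle and neurons, and in the β-cell the channel carries part of the current that ends each action potential. H3K4me1, monomethylation of lysine 4 of histone H3, marks active and poised enhancers, and at many active start sites it is lower at the start itself than on either side.

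GENCODE M1 places Kcnma1 (ENSMUSG00000063142.6) on the minus strand at chr14:24117983-24622526, a length of 504.5 kb with 6 transcripts. Its first exon in this model spans 165 bp and consists of coding sequence from its first base, so the model holds no 5′ untranslated part. The RefSeq promoter window of Kcnma1 (300 bases, from the table of build GRCm38.p6) matched mm9 at 1 place, chr14:24823378-24823677. The RefSeq start therefore lay 200.9 kb upstream of the GENCODE start. This placement was added after the regions had been seen, and both starts are used below. The bases just before the RefSeq start, printed next, end in the letters of a start codon, atg, and whether transcription begins at this position was not tested.

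The sequences shown first are those on which the description turns, all read from mm9 on the minus strand, which is the strand of the gene. The 250 bases before the RefSeq start, at chr14:24823428-24823677, are given because no region covered this start. CpG dinucleotides are in capitals.
5′ flank of the RefSeq start: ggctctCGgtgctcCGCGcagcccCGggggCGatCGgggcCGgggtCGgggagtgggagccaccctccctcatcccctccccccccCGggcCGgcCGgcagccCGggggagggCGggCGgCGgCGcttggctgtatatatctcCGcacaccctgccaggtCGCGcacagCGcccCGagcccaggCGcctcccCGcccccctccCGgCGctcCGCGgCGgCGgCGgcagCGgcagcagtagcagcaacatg

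Shorter stretches show letters that match the binding motifs of factors downstream of the 3 cytokines. In each, the matched letters are in capitals, and the position is that of the whole stretch. A pair of AP-1 matches lay in intron 1 at chr14:24570602-24570661. A GAS and an NF-kB match lay together in intron 1 at chr14:24502770-24502836. An NF-kB and an AP-1 match lay in intron 1 at chr14:24612271-24612414. An AP-1 and an NF-kB match lay upstream of the GENCODE start at chr14:24704906-24704981. A match to the interferon-stimulated response element (ISRE) lay at chr14:24624257-24624316, in the region over the GENCODE start.
AP-1 pair, intron 1: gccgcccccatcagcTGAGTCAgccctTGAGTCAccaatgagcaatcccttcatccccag
GAS and NF-kB, intron 1: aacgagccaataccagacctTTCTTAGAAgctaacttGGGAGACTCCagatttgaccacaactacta
NF-kB and AP-1, intron 1: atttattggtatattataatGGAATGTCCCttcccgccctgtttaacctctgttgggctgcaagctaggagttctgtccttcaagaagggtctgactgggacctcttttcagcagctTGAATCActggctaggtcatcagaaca
AP-1 and NF-kB, upstream: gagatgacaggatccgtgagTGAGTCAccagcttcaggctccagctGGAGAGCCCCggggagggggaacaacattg
ISRE, region over the GENCODE start: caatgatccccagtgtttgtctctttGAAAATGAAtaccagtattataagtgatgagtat

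The list gives the position of each region on a grid of 200 bp, with no read count, height or score. The depth of the library is therefore unknown, and an empty stretch may owe to few reads or a strict call as well as to absent methylation. The median width over the list was 1200 bp (quartiles 600 and 2400 bp), and regions covered 5.29% of chromosomes 1 to 19 and X and 4.27% of chromosome 14. Of all protein-coding genes, 62% had a region within 2 kb of a start and 39.1% had a start covered. Among genes that mark islet cells, 7 of 8 β-cell genes had a region within 2 kb of a start. The counts within 2 kb were 1 of 4 for α and δ cell genes, 4 of 6 for smooth muscle, 2 of 4 for endothelium, 1 of 4 for leukocytes, 0 of 4 for acinar cells and 1 of 4 for glia. A start was covered in 3 of 8 β-cell genes, not Ins1, and in 0 of 4 α and δ, 1 of 6 smooth muscle, 2 of 4 endothelial, 1 of 4 leukocyte, 0 of 4 acinar and 1 of 4 glial genes. Islets also hold vessel cells, and which cells carried the methylation at Kcnma1 was not tested.

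Regions were densest around and upstream of the GENCODE start and became sparse towards the 3′ end of the gene. Inside the gene, the 31 regions covered 59.1 kb, or 11.7% of its length, at 6.14 regions per 100 kb. In the 100 kb upstream of the GENCODE start, regions covered 48.2% of the sequence, whereas in the 100 kb downstream of the gene they covered 0.8%. The downstream member was a single 800 bp region at chr14:24056001-24056800, 61182 bp beyond the 3′ end.

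In consecutive 100 kb steps from the GENCODE start into the gene, 12, 11, 5, 1 and 1 regions had their midpoint in the step. The covered shares of these steps were 23.7%, 21.4%, 11.2%, 0.4% and 2.4%. In the opposite direction, the first 100 kb upstream held 17 midpoints with 48.2% covered, and the next 100 kb held 13 with 47.2% covered. The step after that, with the RefSeq start close to its gene-side edge, held 2 midpoints with 1.87% covered. The run of regions thus ended within 5 kb of the RefSeq start and not at the GENCODE start.

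**Figure D1:**
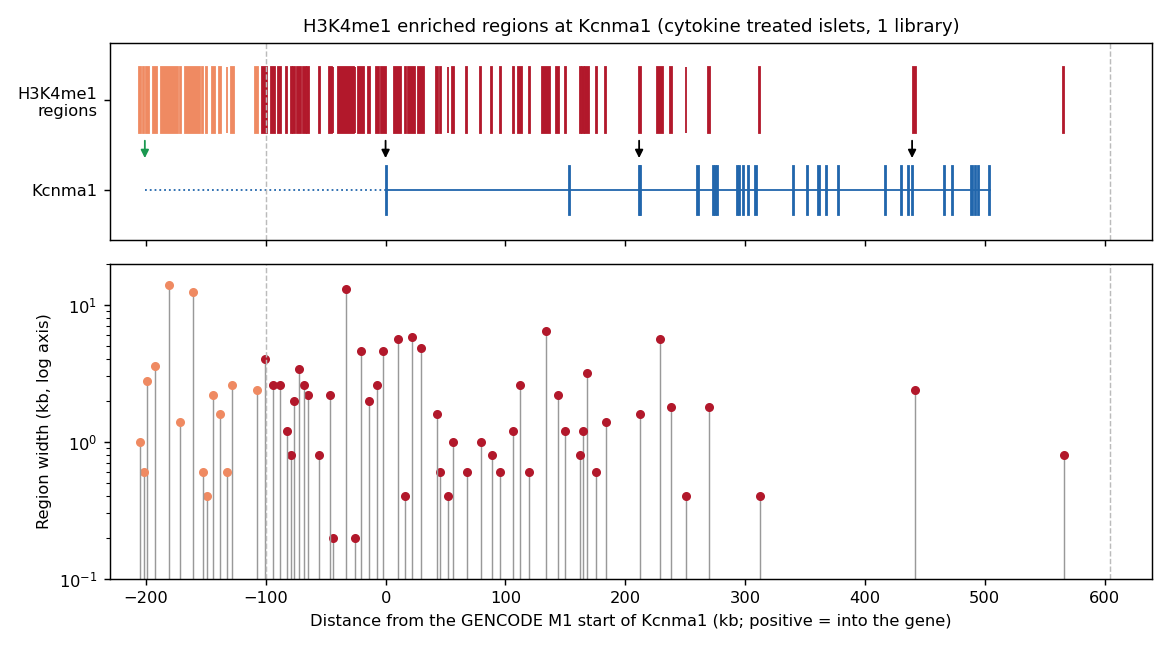
H3K4me1 enriched regions at Kcnma1 against the distance from the GENCODE M1 start in kb, with positive values inside the gene. The upper panel shows regions (dark red for the 49 members, orange for those farther upstream), exons of Kcnma1-201 (blue), GENCODE starts (black arrows) and the RefSeq start (green arrow), with dashed lines at the 100 kb limits; the lower panel gives each region's width on a log axis. Regions are dense from the RefSeq start to about 200 kb inside the gene, and 3 remain beyond 300 kb, the downstream member included.

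Members were on the whole as wide as other regions of the list inside the gene and wider upstream. The 31 regions overlapping the gene had a median width of 1200 bp, the same as the list, with a range of 400 to 6400 bp. The widest that lay wholly in the gene was chr14:24485601-24492000 in intron 1. The 17 upstream members had a median width of 2200 bp and ranged from 200 to 13000 bp. Of these 17, 10 were wider than 2000 bp, against 10 of the 31 in the gene. The widest member, chr14:24649201-24662200, had its midpoint 33174 bp upstream of the GENCODE start. The only members of a single 200 bp step, 2 in number, lay on either side of it, 1200 and 3800 bp from its edges.

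Spacing showed the same gradient. Between neighbouring regions in the gene the 30 gaps had a median of 6500 bp and reached from 1400 to 128200 bp, and 9 of them were under 5 kb. From the region over the GENCODE start to the upper limit of the window, the 17 gaps had a median of 2800 bp, none exceeded 8000 bp, and 15 were under 5 kb. The shortest upstream gaps, of 800 bp, included that between chr14:24698001-24700000 and chr14:24700801-24701600. The widest gap in the gene ran for 128.2 kb from the region in intron 22 to that in intron 13, and a stretch of 122.8 kb without a region lay over the 3′ end.

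Within the GENCODE model, intron 1 held most of the regions in the gene. Introns are numbered in this model. With the RefSeq start, the 29 regions wholly between both starts would also lie in the gene, and the numbering could differ. In the reference transcript Kcnma1-201, which has 28 exons, 7 of 27 introns overlapped a region. Intron 1, with 153.0 kb, overlapped 19 regions and was covered over 24.7% of its length. Intron 2, with 58.4 kb, overlapped 5 regions with 12.3% covered, and intron 4, with 47.5 kb, overlapped 4 with 17.8% covered. The short intron 3 (0.835 kb) lay almost whole, to 98.9%, under 1 region that reached into intron 4.

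Beyond intron 4 the gene was nearly free of regions. Introns 5 to 27 together span 240.2 kb and overlapped 3 regions, which covered 4.6 kb or 1.92%. These were a region of 1800 bp in intron 5, one of 400 bp in intron 13 and one of 2400 bp in intron 22. The other 20 introns, 169.4 kb in all, had no region, the longest of them intron 18 with 39.2 kb. The split at intron 4 was made after the positions had been seen. From the upstream stretch into the gene, GC content fell in the same direction as the regions: it was 46.2% and 46.7% in both densely covered 100 kb steps upstream of the GENCODE start, 44.1% in the first step of the gene, 43.1% in each of the next pair and 42.0% and 42.3% in the steps with 1 region each. The next step upstream, in which the run ends, had 45.4% GC with 1.87% covered. The part of base composition in the gradient was not tested. The reference holds no unknown bases in any intron.

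**Figure D2:**
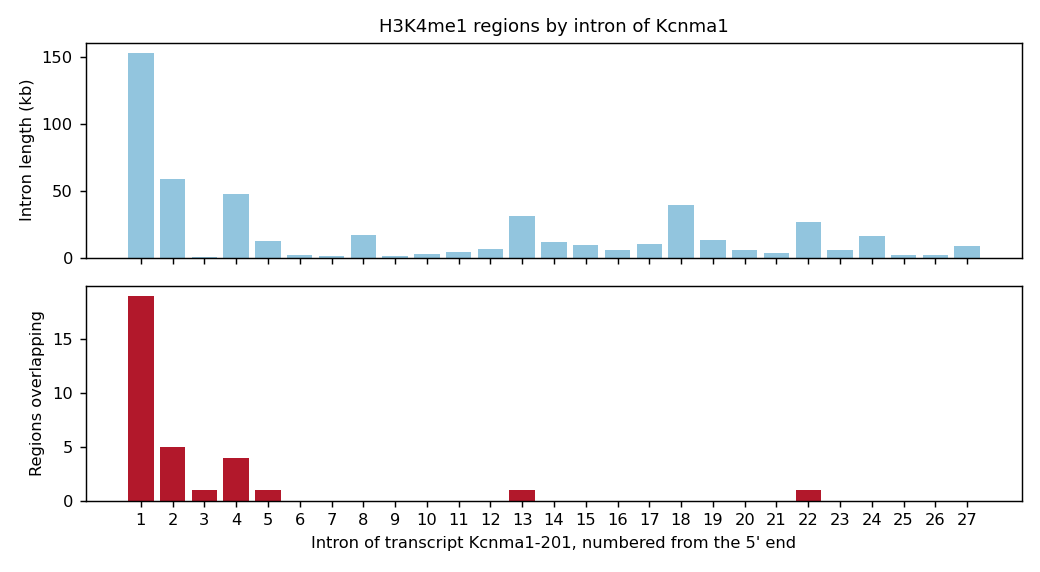
Length in kb (upper bars) and number of overlapping H3K4me1 regions (lower bars) for each of the 27 introns of transcript Kcnma1-201. Numbering follows the GENCODE M1 model, which starts downstream of the RefSeq start. Intron 1 is the longest and has 19 regions; intron 18, with 39.2 kb, has 0.

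Nearly all members in the gene were intronic. Of the 31 regions overlapping it, 29 lay wholly in introns and 2 touched an exon. These 2 were chr14:24622001-24626600 over exon 1 and chr14:24409201-24410800 over the exon between introns 3 and 4. By distance to the closest annotated start, with the study's limits at 2, 20 and 100 kb, 2 of the 49 members fell in the promoter class, 6 were proximal enhancers, 38 distal enhancers and 3 intergenic. Of the 3 in the intergenic class, 2 lay inside Kcnma1, in introns 1 and 13.

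The 6 transcripts use 3 start positions, and 1 of the 3 was covered by a region. Over all protein-coding genes, 31.5% of GENCODE M1 start positions were covered, so the share in Kcnma1 lay near the background. The covered start, at 24622526, serves Kcnma1-201 and Kcnma1-203 and lay near one end of the 4600 bp region chr14:24622001-24626600. The start at 24410923, used by Kcnma1-202, Kcnma1-204 and Kcnma1-206, lay 123 bp from the region chr14:24409201-24410800. The start of Kcnma1-205 at 24183117 lay 1117 bp from chr14:24179601-24182000, the most 3′ region in the gene. All 3 starts thus had a region within 2 kb, which was so for 60.2% of start positions.

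The RefSeq start, at 24823427, was not covered, and this call and the distances from it hold for that position, which directly follows the letters atg. It lay in a gap of 1400 bp between chr14:24820001-24822800, 627 bp away inside the extended gene, and chr14:24824201-24824800, 774 bp away on the other side. Of 19207 RefSeq starts of protein-coding genes placed in mm9, 34.3% were covered, and 11.3% were uncovered with a region within 2 kb on both sides, as here. The region on the far side covered the start of the non-coding gene 4930519K11Rik, 786 bp from that of Kcnma1. The flank printed above belongs to a CpG-rich window: the 300 bases around the RefSeq start hold 36 CpG dinucleotides and 78% GC, against medians of 14 and 57% over the 19207 windows, and 8.60% of windows hold at least as many.

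The stretch between both starts was more densely covered than the gene itself. It held 29 regions wholly upstream of the GENCODE start, 12 of them past the 100 kb limit of the members, and 47.6% of it was covered. The median width there was 2300 bp and the median gap 3200 bp, with 17.8 kb as the longest gap. Besides the widest member, it held the regions chr14:24777401-24789800 of 12400 bp and chr14:24796001-24810000 of 14000 bp. Widths over 10 kb were reached by 2.01% of the list. Past the run, which ended with chr14:24827001-24828000, 155.0 kb without a region followed, up to chr14:24983001-24984800 in Dlg5, a scaffold gene of cell polarity that was named for its position.

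The choice of start changed how the regions of this stretch were classed. By the GENCODE starts, 0 of the 29 were promoters, 2 proximal enhancers, 18 distal enhancers and 9 intergenic. With the RefSeq start of Kcnma1 added, 4 were proximal, 24 distal and 1 intergenic. With the gene extended to the RefSeq start, a length of 705.4 kb, it overlapped 60 regions at 8.51 per 100 kb, and 21.9% of it was covered.

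The limits of the window fell in unlike surroundings. On the upstream side the last member was chr14:24721401-24725400, 98874 bp from the gene, and the nearest region outside, chr14:24729001-24731400, lay 106474 bp away, inside the same run. On the downstream side the nearest region outside, chr14:23964001-23966200, lay 151782 bp away. The window held 1 other gene of GENCODE M1, A830039N20Rik, a processed transcript with 0 regions. The RefSeq gene Gm51422 starts inside Kcnma1 at 24469339, a position not covered and 2662 bp from chr14:24472001-24473200. When each region was assigned to the closest start within 100 kb, Kcnma1 received 45 regions, all of them members, and 29 of these went to the start at 24622526, 15 to that at 24410923 and 1 to that at 24183117.

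Against other long genes in their GENCODE bounds, Kcnma1 stood in the upper part of the range but not at its top. Of 528 protein-coding genes of at least 300 kb, 25 had no region and the median was 10 regions, 2.24 per 100 kb (quartiles 0.924 and 4.26), with 2.67% covered. Kcnma1 ranked 56 by number, 72 by regions per 100 kb and 74 by covered share. Its density was 2.75 times and its covered share 4.39 times the median of these genes. Among all 22350 protein-coding genes it ranked 61 by number. With every gene extended to its RefSeq start where one was placed, Kcnma1 ranked 9 by number among all genes, and 26 by regions per 100 kb and 29 by covered share among the 547 then at least 300 kb long. A RefSeq start was placed for 61.3% of protein-coding genes, too few for a valid comparison, so these ranks are partial values and nothing rests on them. At least 1 start was covered in 63.4% of the 528 genes, Kcnma1 among them.

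**Figure D3:**
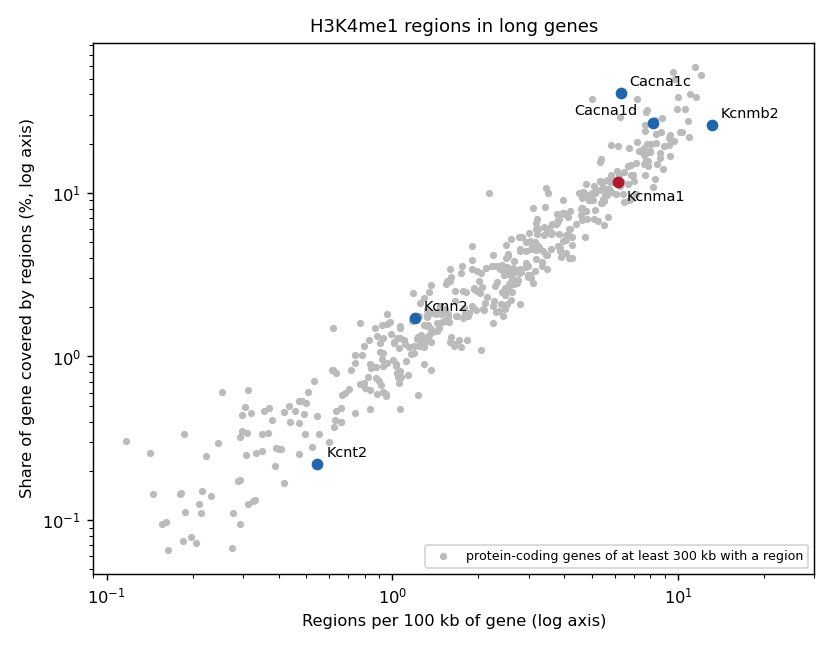
Regions per 100 kb of gene (x, log axis) against the share of the gene covered in percent (y, log axis) for protein-coding genes of at least 300 kb with a region (grey), with channel genes in blue. Kcnma1 (dark red) lies at 6.14 and 11.7%; Kcnmb2, with 297.7 kb, is just under the length limit.

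Within the GENCODE bounds, the regions of Kcnma1 lay mostly towards its start. Of its 30 regions with a midpoint in the gene, 27 (90%) lay between the GENCODE start and the middle of the gene, and 3 in the remainder. Over the 282 long genes with at least 10 such midpoints, the median share was 54.5% (quartiles 43.7% and 65.0%), and 8 genes, Kcnma1 included, reached 90%. With the gene taken to the RefSeq start, the share in Kcnma1 was 80%, or 48 of 60 midpoints. In the same partial extension of the other genes, the median share was 53.8% and 23 of 292 genes, Kcnma1 included, reached its value. Within the GENCODE bounds, the median width of 1200 bp equalled the median over the 282 genes (quartiles 1000 and 1400 bp). The median gap of 6500 bp lay just below the lower quartile of 6600 bp, with a median of 12350 bp and 70 genes at or below Kcnma1.

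The 5 genes with the most regions were all longer than Kcnma1, although shorter genes, such as Phactr1 with 53 regions and Maml3 with 50, also had more regions than its 31. Both were named after their values had been seen. Gm20388, a model of 4434882 bp, overlapped 274 regions, and Fgfr2, a fibroblast growth factor receptor whose M1 model spans 3009069 bp, overlapped 121. They were followed by Arfip1, with 82 in a model of 1391424 bp. Next came Rora, a nuclear receptor, with 71, and Ptprn2, a protein of insulin granules, with 66. Regions were counted over the whole span of each model, whatever other genes lie in it.

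The 10 genes next to Kcnma1 in length all had fewer regions. The 5 just shorter were Dnm3 with 19 regions, Edil3 with 4, Dock1 with 19, Car10 with 21 and L3mbtl4 with 6. The 5 just longer were B930007M17Rik and Fgf13 with 0 each, Rad51l1 with 20, Aff2 with 1 and Arhgap6 with 2. Fgf13, Aff2 and Arhgap6 lie on the X chromosome.

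The 5 long genes most like Kcnma1 in regions per 100 kb and covered share, by the summed absolute differences on a log2 scale, were Cdkal1, Kalrn, Frmd4a, Magi1 and Arfip1. Cdkal1, an enzyme that modifies transfer RNA, had 40 regions at 6.02 per 100 kb with 11.9% covered. Kalrn had 38 at 6.34 with 11.6% covered. Frmd4a and Magi1 had 35 each with 11.7% covered, and Arfip1 had 82 in its model of 1391424 bp with 12.1% covered. In Kalrn 81.6% of midpoints lay on the start side of the middle of the gene, whereas the values were 65.0% in Cdkal1, 62.9% in Magi1, 39.0% in Arfip1 and 37.1% in Frmd4a.

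The BK channel is assembled from the α subunit with auxiliary β and γ subunits, which set its calcium sensitivity and gating. Among the β subunit genes, Kcnmb2, whose product inactivates the channel, held the most regions. It overlapped 39 regions in 297.7 kb, 13.1 per 100 kb, with 25.9% covered, which is more on each measure than Kcnma1, and 0 of its 3 starts were covered. Kcnmb1, the β subunit of smooth muscle, lay whole under 1 region of 20800 bp, chr11:33862001-33882800. Kcnmb1 lies inside the annotated span of the longer gene Kcnip1, chr11:33529339-33893152 on the opposite strand, so this region overlaps both. Kcnip1 was named after its overlap had been seen. Kcnmb3 overlapped 1 region with 2.84% covered, and Kcnmb4, the β subunit of neurons, overlapped 2 with 2.74% covered and 3 of 4 starts covered.

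Of the γ subunit genes, which encode leucine-rich repeat proteins, Lrrc26 lay whole under 1 region of 6000 bp and Lrrc38 overlapped 2 with 12.9% covered, each with its start covered. Lrrc55 overlapped 1 region with 1.16% covered, and a region covered its RefSeq start but not its GENCODE start. Lrrc52 overlapped 0, with a region within 2 kb of its start. In all, 7 of the 8 auxiliary subunit genes overlapped a region and 4 of the 8 had a GENCODE start covered. Over all protein-coding genes these shares were 64.5% and 39.1%.

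The other genes of the Slo family overlapped 2 regions each, and all 3 had a start covered, against 39.1% of all protein-coding genes. A covered start is easier to reach with many starts: 7 of 12 were covered in Kcnt1, 4 of 5 in Kcnt2 and 1 of 3 in Kcnu1. Kcnt1 and Kcnt2, sodium-activated potassium channels, had 4.20% and 0.221% of their length covered. Kcnu1, the channel of sperm, had 0.799% covered. Their densities were 3.67 regions per 100 kb in Kcnt1, 2.26 in Kcnu1 and 0.547 in Kcnt2, which spans 365.8 kb, against 6.14 in Kcnma1. Among the small and intermediate conductance calcium-activated channels, Kcnn3 had the most, 13 regions with 17.5% covered. Kcnn2 had 5 in 417.0 kb with 1.71% covered, and Kcnn1 and Kcnn4 had 1 each, with 8.74% and 12.0% covered. Of these 4 genes, 2 had a start covered, whereas Kcnn3 and Kcnn4 had none.

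Calcium entry through voltage-gated channels opens the BK channel, and the pair of L-type genes known from β-cells had the most regions and the largest covered shares of the 6 calcium channel genes. Cacna1c overlapped 38 regions with 40.6% of its 603.9 kb covered, and its widest region measured 28600 bp. Cacna1d overlapped 37 with 26.9% of 451.2 kb covered. Both had a larger covered share than Kcnma1, and Cacna1c had a median region width of 3400 bp against 1200 bp. The P/Q-type gene Cacna1a overlapped 15 regions with 10.1% covered, and the R-type gene Cacna1e 7 with 1.93%. The T-type genes Cacna1g and Cacna1h overlapped 7 and 3 regions, with 13.6% and 7.61% covered. Per 100 kb, Cacna1g had 10.7 regions, more than Cacna1d with 8.20 and Cacna1c with 6.29. A start was covered in 5 of the 6 genes, not in Cacna1d, against 39.1% of all protein-coding genes.

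**Figure D4:**
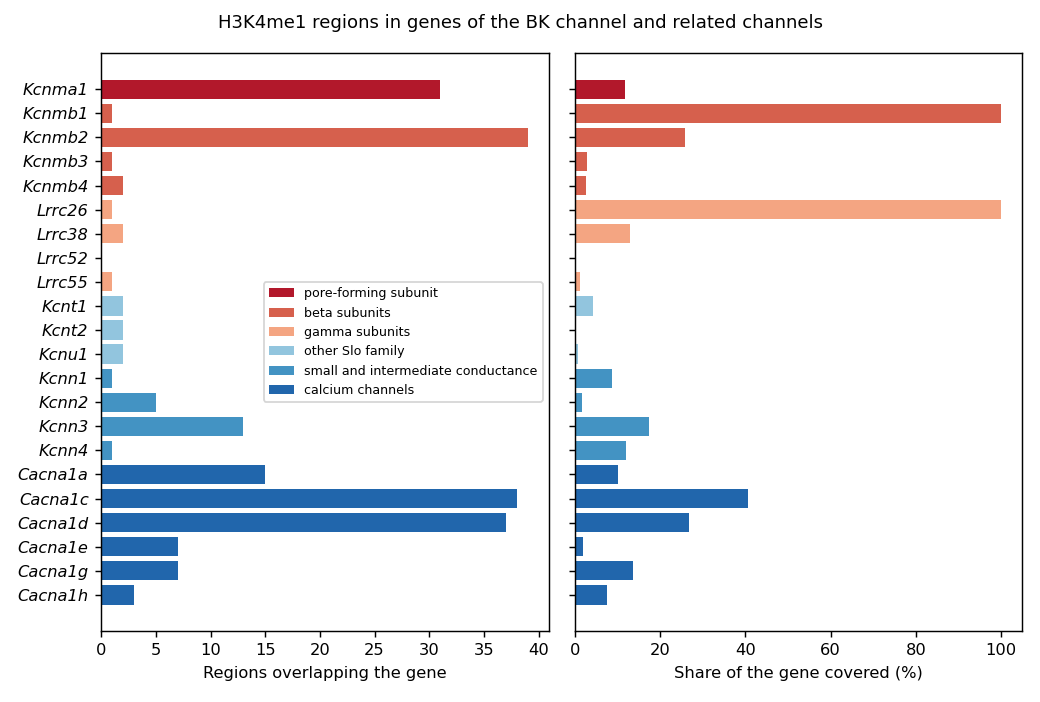
Number of H3K4me1 regions overlapping each gene (left) and share of the gene covered in percent (right) for Kcnma1, its auxiliary subunits, related potassium channels and calcium channels. Kcnmb2, Cacna1c, Cacna1d and Kcnma1 have 31 to 39 regions each; Kcnmb1 and Lrrc26 are covered whole by 1 region, and Lrrc52 has 0.

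Motif letters were searched on both strands in the central 300 bp of each member, and the same search was run on the 65650 regions of chromosomes 1 to 19 and X. Members shorter than 300 bp were taken with their flanks. A match is a description of letters and not a binding site. AP-1, the motif of Fos and Jun (TGANTCA), was found in 8 of 49 members, 16.3% (95% exact interval 7.32% to 29.7%), against 11.4% of all regions. GAS, the interferon-gamma activated sequence (TTCNNNGAA), was found in 10.2% against 9.52%. ISRE (GAAANNGAA) was found in 10.2% against 10.5%. The NF-kB motif, of factors activated by IL-1β and TNFα, was found in 4 members, 8.16% (2.27% to 19.6%), against 5.54%. All 4 background shares lay inside the intervals of the 49 members. Neighbouring regions of 1 gene are not independent, so this is a description and no test for a difference.

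The matches to these 4 motifs lay where most members lie. They were 24 in number, in 19 members. These were 9 of the 18 members with their midpoint in intron 1, 8 of the 17 upstream of the GENCODE start and the remainder elsewhere. The share of all regions with any of the 4 was not computed, so nothing is read from this count. The 8 members with AP-1 lay in intron 1 (5) and upstream (3). In the 400 bp region chr14:24570401-24570800, both matches of the AP-1 pair printed above read the same letters. Of the 4 members with NF-kB, 3 also held an AP-1 or GAS match, and these are the stretches printed above. Over the list, 18.9% of the 3635 regions with an NF-kB match held one. The printed stretches were chosen for such pairs, and with 4 members nothing is read from this share.

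For motifs of islet and muscle factors, the background shares in the central 300 bp likewise lay inside wide intervals of the members. Foxa (TGTTTAC) was found in 4.08% of members against 6.16%, the homeodomain core bound by Pdx1 (TAATTA) in 6.12% against 9.69%, and the Maf element searched as TGCTGAC in 8.16% against 5.32%. The E-box (CANNTG) was found in 77.6% against 81.5%. MEF2 and SRF, factors of muscle genes, had matches in 4.08% and 2.04% of members against 5.06% and 1.45%. In the central 1000 bp, AP-1 was found in 24 members, 49.0% (34.4% to 63.7%), against 31.3% of all regions, a background share below the interval. For the other motifs the background share stayed inside the interval at 1000 bp. At this window, the 16 members shorter than 1000 bp were taken with their flanks, as were short regions of the list. The list is narrower, with a median width of 1200 bp against 1600 bp in members, so both were not searched alike. The interval covers counting error only, 10 motifs and 2 window sizes were searched, and neighbouring regions of 1 gene are not independent, so the AP-1 share is given as a value and not as a difference. The median GC content of the central 300 bp was 46.3% in members and 46.0% over the list, and the median ratio of observed to chance CpG was 0.123 against 0.221. Only 2 of the 49 members were in the promoter class. The list also holds regions over start sites and was not split by class, so both sets are unlike.

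**Figure D5:**
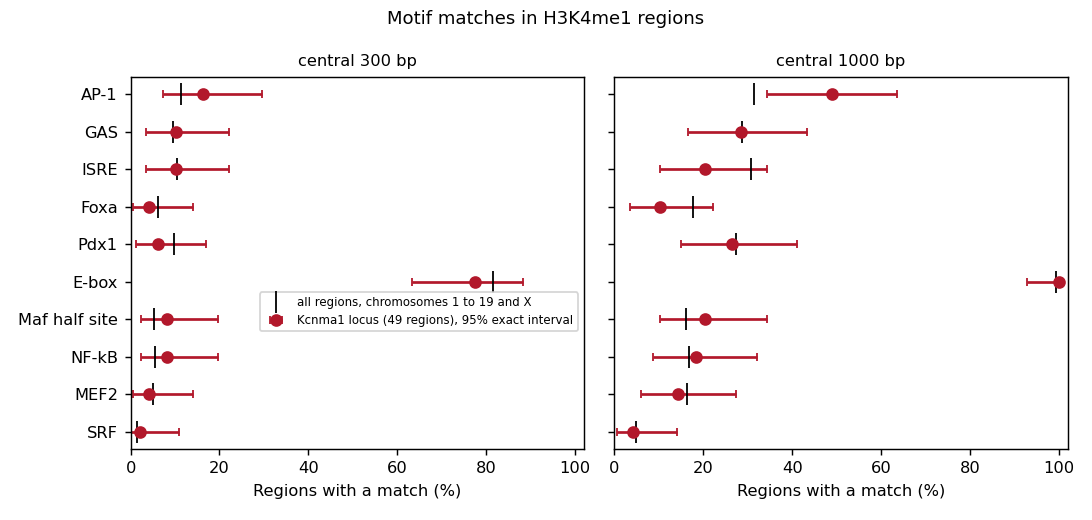
Share of regions with a motif match in percent in the central 300 bp (left) and 1000 bp (right), for the 49 members with 95% exact binomial intervals (red) and for all 65650 regions of chromosomes 1 to 19 and X (black ticks). The ticks lie inside the intervals except for AP-1 in the 1000 bp windows, where 49.0% of members and 31.3% of all regions have a match.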

How the data were processed

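The authors mapped the reads of the pooled library to NCBI37/mm9 with Bowtie2 (2.2.1 per the labels' processing notes) and called enriched regions with ChromHMM, whose version and settings are not given in the sources used here. The deposited list holds the start and end of each region, with no count, height or score. Starts were counted from 1. An edge is known to within 1 step of the 200 bp grid.

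Genes, transcripts and start positions came from GENCODE M1 on mm9. A region counted for a gene when it shared at least 1 base with it. RefSeq promoter windows (250 bases before and 50 after each start, build GRCm38.p6) were placed in mm9 by exact sequence match: 30082 of 32619 windows matched once. A RefSeq start was placed for 61.3% of the protein-coding genes, too few for the comparison with all genes extended, which is void and whose values are printed as partial only. In the alternatives, Kcnma1 alone was extended. The locus, gene lists and motifs were chosen with earlier results of these data known. The RefSeq start, the share of midpoints before the middle of the gene, the split at intron 4 and the printed sequences were chosen after the regions had been seen.

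Named genes were Kcnma1, the auxiliary subunits, the Slo and calcium-activated relatives, 6 calcium channel genes, genes in the window, the 5 genes with the most regions, the 5 just longer and 5 just shorter, and the 5 long genes most alike. Marker genes of islet cell types were counted as a separate list. Dlg5, 4930519K11Rik, Gm51422, Kcnip1, Phactr1, Maml3 and, among the markers, Ins1 fall outside the rule and were named after their values had been seen. With 1 library there is no replicate, so no p-value was computed. For shares of regions, exact binomial 95% intervals were computed with regions as units. They hold counting error alone, and background shares were set beside them as a description. Counting steps were tested on simulated data, where 400 of 400 planted genes had the right number of regions, covered length and position. The scripts ran under Python 3.11.15 with pandas 2.3.3 and numpy 2.4.6. Intervals came from scipy 1.17.1, figures from matplotlib 3.10.9.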

Additional observations from a re-analysis of the deposited data

How the results depend on the processing

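Of 60 alternative values for 19 results, 46 stayed within 1.5 times the reported count or within its interval, 14 moved and 0 reversed. Many could not move. In the gene the narrowest region was 400 bp and the smallest gap 1400 bp, so filtering at 400 bp or merging over 1000 bp changed nothing there. The longest transcript had the bounds of the gene. Only the density relative to long genes could be called reversed. The totals are therefore no measure of robustness. With regions of at least 1000 bp alone, 20 overlapped Kcnma1, with a median width of 2000 bp and a median gap of 11800 bp, since the short regions were left out. With long genes taken from 500 kb, the density of Kcnma1 was 4.50 times their median. With a region within 2 kb in place of over the start, 100% of its start positions counted. With the gene extended to the RefSeq start, chosen after the data had been seen, it held 60 regions, 21.9% was covered and the median gap was 3800 bp, by the added stretch. Its density was then 3.80 times the median of the other long genes, which kept their GENCODE bounds. In the central 1000 bp, more members had a match, since longer windows hold more letters. Shares of members were 49.0% for AP-1, 28.6% for GAS, 26.5% for Pdx1, 100% for the E-box, 20.4% for the Maf element and 14.3% for MEF2. Over all regions the shares were, in the same order, 31.3%, 28.7%, 27.4%, 99.4%, 16.2% and 16.2%. A flank of 50 kb gave 38 members and one of 200 kb gave 63. No paired analysis was possible because the list comes from a single library, and for that reason no replicate could be left out. The list has no score, so no stricter threshold could be tried, and how depth limits it is unknown.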
